A study of Drosophila melanogaster with 4 samples.

Results

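The aminoacyl-tRNA synthetase genes of Drosophila melanogaster were examined for binding of exex, the fly homologue of the homeodomain transcription factor HB9. Members were the protein-coding genes whose symbol is made of an amino acid code and RS, with the suffix -m for the mitochondrial form. The rule took 33 of 13945 protein-coding genes on the main chromosome arms. The 15 with the suffix are called mitochondrial here and the 18 without it cytosolic. Glycine, glutamine, histidine, lysine and threonine had no member with the suffix. The symbols do not say whether the genes called cytosolic also serve the mitochondrion, so that class may hold genes with both uses. The genes of the cytosolic phenylalanyl enzyme, alpha-PheRS and beta-PheRS, carry a prefix that the symbol rule does not take, and are given with the pathway genes. Chromatin came from whole embryos of 6 to 24 h of a transgenic line that stably expresses exex with GFP fused to its C-terminus, and was precipitated with an antibody to GFP. The 4 libraries were biological replicates of this 1 group. No second genotype, stage or treatment and no input library was analysed here. Whole embryos mix many cell types, so a peak does not show which cells it came from, and the sources used here do not say what drives the transgene.

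Aminoacyl-tRNA synthetases attach each amino acid to its tRNA and so set which amino acid the ribosome reads for a codon. The enzymes fall into class I and class II, which have unrelated catalytic folds. In mammals several cytosolic enzymes sit together in a multisynthetase complex held by scaffold proteins. A mostly separate set of nuclear-encoded enzymes charges the tRNAs of the mitochondrion. Synthetase genes are active in nearly all cells, and in mammals the transcription factor ATF4 raises many of the cytosolic ones under amino acid stress. exex itself is known for its part in the identity of ventrally projecting motor neurons.

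The cytosolic class I members were ArgRS, CysRS, GlnRS, IleRS, LeuRS, MetRS, TrpRS, TyrRS and ValRS. The cytosolic class II members were AlaRS, AsnRS, AspRS, GlyRS, HisRS, LysRS, SerRS and ThrRS. GluProRS, a fused enzyme that charges the tRNAs of glutamate and proline, holds a domain of each class. The mitochondrial class I members were ArgRS-m, CysRS-m, GluRS-m, IleRS-m, LeuRS-m, MetRS-m, TrpRS-m, TyrRS-m and ValRS-m. The mitochondrial class II members were AlaRS-m, AsnRS-m, AspRS-m, PheRS-m, ProRS-m and SerRS-m.

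The sequence at 6 of the bound sites is shown to set side by side cytosolic promoters with and without a known motif and the mitochondrial members that had a site. Each runs up to 100 bp on either side of the peak summit, the point of highest signal, trimmed where an exon of a protein-coding gene begins. All are on the + strand of the dm6 assembly (Release 6), from the RefSeq genome. Capitals mark the motifs searched for, namely TAATTA, the core homeodomain site, CTTATC, which holds a GATA core on its other strand, and TATCGATA, the site of the factor DREF at many housekeeping promoters. The TrpRS stretch is chr3R:9266905-9267018 and that of GluProRS is chr3R:23958404-23958604. The GlyRS stretch is chr3L:15094854-15095054 and that of LeuRS is chr2L:3514719-3514871. The LeuRS-m stretch is chr3L:4824843-4825043, in an intron of Dhc64C, and that of SerRS-m is chr3R:15340139-15340339, in an intron of Nagk.
TrpRS: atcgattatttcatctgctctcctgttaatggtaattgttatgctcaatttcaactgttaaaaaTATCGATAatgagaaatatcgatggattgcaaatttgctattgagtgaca
GluProRS: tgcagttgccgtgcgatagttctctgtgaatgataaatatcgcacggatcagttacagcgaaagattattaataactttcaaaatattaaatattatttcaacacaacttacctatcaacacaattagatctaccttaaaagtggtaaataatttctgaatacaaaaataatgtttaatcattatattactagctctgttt
GlyRS: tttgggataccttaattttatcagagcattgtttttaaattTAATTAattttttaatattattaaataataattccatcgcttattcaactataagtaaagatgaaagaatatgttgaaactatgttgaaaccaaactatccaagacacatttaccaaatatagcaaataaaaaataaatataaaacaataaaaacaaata
LeuRS: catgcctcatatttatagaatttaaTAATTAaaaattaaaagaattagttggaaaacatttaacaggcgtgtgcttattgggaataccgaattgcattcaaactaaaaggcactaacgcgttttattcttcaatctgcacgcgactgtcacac
LeuRS-m: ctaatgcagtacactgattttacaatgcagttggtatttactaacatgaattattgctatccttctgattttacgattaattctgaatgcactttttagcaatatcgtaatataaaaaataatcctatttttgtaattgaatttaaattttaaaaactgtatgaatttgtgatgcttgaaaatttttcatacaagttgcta
SerRS-m: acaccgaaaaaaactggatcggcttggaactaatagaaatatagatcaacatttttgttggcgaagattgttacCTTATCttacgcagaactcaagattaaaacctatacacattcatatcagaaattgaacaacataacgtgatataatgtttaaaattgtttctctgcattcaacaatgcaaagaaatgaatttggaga

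Peaks of exex-GFP in the authors' list filtered by irreproducible discovery rate (IDR) lay at the promoters of 11 of 33 synthetase genes, a promoter being the stretch within 1000 bp of any annotated transcription start site (TSS). This was 33.3% of members (95% Wilson interval 19.8 to 50.4%), against 28.2% of all protein-coding genes, so the members as a whole were close to the background. The members were also counted by compartment. IDR summits lay at 9 of 18 cytosolic members (50%, interval 29 to 71%) and at 2 of 15 mitochondrial members (13.3%, interval 3.74 to 37.9%). The difference was 36.7 percentage points, cytosolic minus mitochondrial, and the intervals overlap. The cytosolic members with a site were AlaRS, ArgRS, AsnRS, AspRS, GluProRS, GlyRS, LeuRS, SerRS and TrpRS, and the mitochondrial ones LeuRS-m and SerRS-m. Some IDR peaks rest on few libraries. Kept to IDR peaks that the highest-signal peaks of each of the other 3 replicates overlapped, the count was 5 of 33 without replicate 2, 5 without replicate 3 and 5 without replicate 4, but 9 without replicate 1. The difference was then 15.6 points in each of those 3 cases and 37.8 points without replicate 1. In those shortened lists of 5339 to 5982 peaks, 18.9% to 20.2% of all genes had a summit, so the 5 members (15.2%) without replicate 2, 3 or 4 were below the background and the 9 (27.3%) without replicate 1 above it.

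The cytosolic members did not differ by membership of the multisynthetase complex as it is known in mammals. Of its enzymes, 4 of 8 had a promoter summit (ArgRS, AspRS, GluProRS and LeuRS), and so did 5 of the 10 other cytosolic members. By catalytic class, 5 of 8 cytosolic class II members and 3 of 9 cytosolic class I members had one, with Wilson intervals of 30.6 to 86.3% and 12.1 to 64.6% that overlap. Among the mitochondrial members it was 1 of 6 in class II (SerRS-m) and 1 of 9 in class I (LeuRS-m). For 12 amino acids a cytosolic and a mitochondrial gene could be paired by the same symbol apart from the suffix. The cytosolic gene alone had a promoter summit for 5 of these (alanine, arginine, asparagine, aspartate and tryptophan), both genes for 2 (leucine and serine), the mitochondrial gene alone for 0, and neither for 5. GluProRS, which had a promoter summit, was not paired with GluRS-m and ProRS-m, which had none. Genes of the 2 kinds of ribosome were counted in the same way. Of 73 mitochondrial ribosomal protein genes 33 had a promoter summit (45.2%), and of 92 cytosolic ribosomal protein genes 57 (62%). The interval of the mitochondrial ribosomal protein genes (34.3 to 56.6%) narrowly overlaps that of the mitochondrial synthetases (3.74 to 37.9%). The former lies above the 28.2% of all genes and the latter takes it in.

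**Figure D1:**
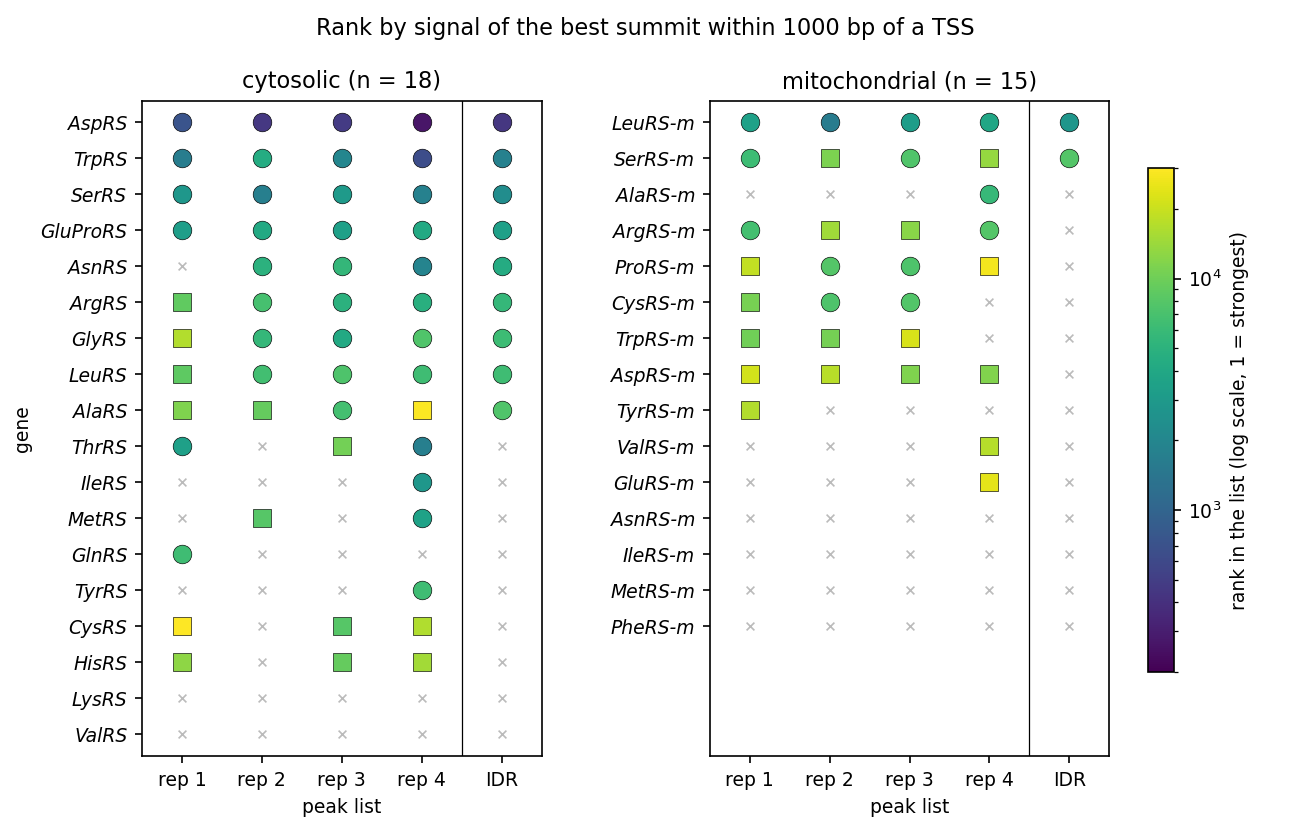
Rank by the authors' signal of the strongest summit within 1000 bp of a TSS of each cytosolic member (left) and mitochondrial member (right), in the lists of replicates 1 to 4 and in the IDR list. Circles are ranks within the 7909 highest, squares lower ranks and crosses no summit in the list. Filled IDR columns are seen for 9 of 18 cytosolic members and 2 of 15 mitochondrial members.

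AspRS, the aspartyl enzyme, carried the strongest site. Its summit at chr2R:12876696 ranked 442 of 7909 IDR peaks, with a signal of 1687 on the authors' score. The summit lay 308 bp upstream of the first AspRS TSS and within an intron of the divergently transcribed neighbour Lfg, whose TSS was nearer. The best AspRS promoter summit ranked 740, 453, 476 and 266 in replicates 1 to 4, so all 4 libraries placed it among their strongest peaks. AspRS had a pair of further summits inside its own body, upstream of an internal TSS. They ranked 5022 and 5399 and lay in an intron that AspRS shares with the overlapping gene Nmda1, which has the nearest TSS. The weaker of the pair was listed in all 4 replicates and the other in 3.

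TrpRS, the tryptophanyl enzyme, had the second strongest promoter site, at rank 1772 with a signal of 814. Its summit at chr3R:9266935 was 31 bp upstream of the TrpRS TSS, between TrpRS and Vps16A, a vesicle-tethering gene whose TSS faces away 115 bp off. The best rank was 1645, 4374, 1983 and 647 in replicates 1 to 4, weakest in replicate 2 but among the highest-signal peaks of every library. The shown TrpRS sequence holds TATCGATA.

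SerRS, the seryl enzyme, followed at rank 2266 with a signal of 696. Its summit at chr2L:3037415 was 12 bp upstream of the SerRS TSS, the smallest distance among the members, and fell in a 5' untranslated exon of CG17260, whose TSS lies 8 bp from that of SerRS. Replicates 1 to 4 ranked it 2827, 1690, 2991 and 1780. None of the 3 motifs in capitals was found within 100 bp of this summit. GluProRS was the last cytosolic member with a site in the stronger part of the IDR list (ranks up to 3954), at rank 3391 with a signal of 514. Its summit at chr3R:23958504 was 113 bp upstream of the GluProRS TSS, in the gap to AP-1sigma, a clathrin adaptor subunit gene. Replicates 1 to 4 ranked it 3244, 4091, 3374 and 4150, and the shown sequence holds none of the motifs.

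LeuRS-m, the mitochondrial leucyl enzyme, had the stronger of the mitochondrial sites, at rank 2766 with a signal of 601. The summit at chr3L:4824943 lay 910 bp upstream of the LeuRS-m TSS, the largest distance among the members, in an intron of Dhc64C, the heavy chain gene of cytoplasmic dynein. The ranks were 3436, 1616, 3177 and 3851 in replicates 1 to 4, so the site recurred in every library. It was the nearest TSS of Dhc64C, not of LeuRS-m, that lay closest, at 744 bp. SerRS-m, the mitochondrial seryl enzyme, had the weakest site of all members, at rank 7900 of 7909 with a signal of 231. Its summit at chr3R:15340239 was 428 bp upstream of the SerRS-m TSS, in an intron of Nagk, and SerRS-m had the nearest TSS. Replicates 1 to 4 ranked its best promoter summit 6174, 11173, 7514 and 13631, within the 7909 highest in replicates 1 and 3.

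The other cytosolic sites ranked below 3954 in the IDR list. AsnRS, the asparaginyl enzyme, had summits 100 and 305 bp upstream, at ranks 4277 and 7063, and no summit in the list of replicate 1, while replicates 2 to 4 ranked its best one 4874, 5559 and 1930. ArgRS, the arginyl enzyme, had a summit 185 bp upstream at rank 5659, ranked 8751, 6842, 4922 and 4736 in replicates 1 to 4. Replicate 1 again gave the weakest rank. GlyRS, the glycyl enzyme, had one 188 bp upstream at rank 6229, and the peaks that overlap it ranked 22935, 5621, 4142 and 7483. LeuRS, the leucyl enzyme, had one 163 bp upstream at rank 6290, ranked 8619, 6560, 7442 and 6376. For AsnRS, ArgRS, GlyRS and LeuRS, replicate 1 was thus the library without a summit among its highest peaks. AlaRS, the alanyl enzyme, had a summit 63 bp upstream at rank 7483, ranked 11301, 9253, 6755 and 29049, and only replicate 3 placed it among its 7909 highest peaks.

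Together the 11 members held 14 promoter summits, and all 14 lay upstream of the nearest own TSS, at a median of 186 bp. Of these, 7 were intergenic, 5 were in introns, 2 were in an untranslated exon of a neighbour and 0 were in a coding exon. The member's own TSS was the nearest of all genes for 6 of the 14. These placements are not given for promoter summits in general, so no trait of the members is read from them. By their medians the sites were weaker than promoter summits in general. The median IDR rank was 5210 and the median signal 353. For all 4342 IDR summits within 1000 bp of a TSS they were 3987 and 451. Ranks up to 3954 were held by 5 of the 14, against 2155 of the 4342. The highest-signal peaks of replicates 1 to 4 overlapped 42.9, 85.7, 100 and 78.6% of the members' IDR promoter peaks (76.8 ± 24.3%, SD, n = 4), against 86.5, 86, 90.3 and 83.4% of all such peaks (86.5 ± 2.84%, SD, n = 4). At this cut replicate 1 overlapped the smallest share of the members' peaks, which was not so for promoter peaks in general. Several missed peaks lay just below the cut, at replicate 1 ranks of 8177 (both inner AspRS summits), 8619 (LeuRS) and 8751 (ArgRS). Those of AlaRS (11301) and GlyRS (22935) lay lower, and only the AsnRS summits were not listed in replicate 1. With all peaks of each replicate the members' mean was 94.6 ± 6.84% (SD, n = 4). The low share thus depends on the cut and on few genes, and is not read as a trait of the members.

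**Figure D2:**
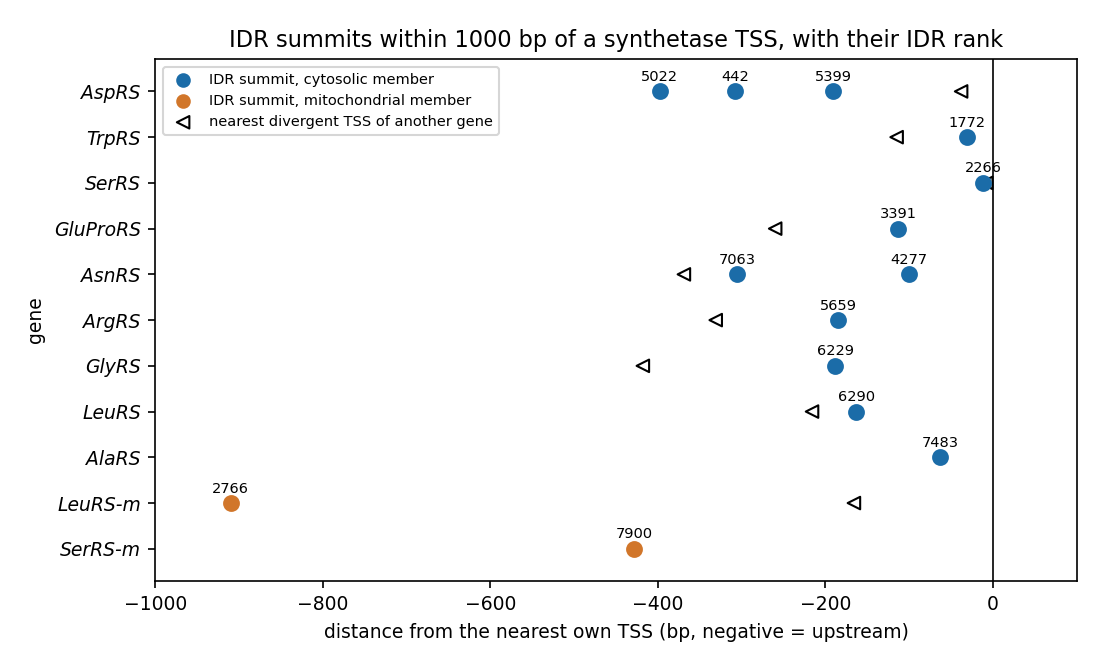
Position of the 14 IDR summits of 11 members relative to the nearest own TSS, in bp, with upstream to the left and the IDR rank printed above each point. Triangles mark the nearest TSS of another gene that faces away within 1000 bp, the AspRS summits of ranks 5022 and 5399 are measured from an internal TSS, and all summits lie upstream, from 12 to 910 bp.

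Many synthetase genes start beside a divergent neighbour. A TSS of another gene on the opposite strand, facing away within 1000 bp upstream, was found for 16 of 18 cytosolic members (88.9%), 7 of 15 mitochondrial members (46.7%) and 36.2% of all genes. This feature was chosen after values were seen. Among genes with such a neighbour, a promoter summit was present at 8 of 16 cytosolic members, 1 of 7 mitochondrial members and 39.7% of all genes. Among genes without one, it was present at 1 of 2 cytosolic members (AlaRS), 1 of 8 mitochondrial members (SerRS-m) and 21.6% of all genes. Which gene of a divergent pair a summit belongs to cannot be told from its position. Counted only for the gene with the nearest TSS, 6 of 33 members kept a promoter summit (5 cytosolic, 1 mitochondrial), against 22% of all genes, which places the members (18.2%) below the background.

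The replicates were used to ask whether the cytosolic share was above the mitochondrial one in each library. From each replicate the 7909 peaks of highest signal were taken, as many as the IDR list holds. In replicates 1 to 4, promoter summits lay at 27.3, 33.3, 39.4 and 45.5% of the 33 members, against 27.5, 26.0, 28.0 and 32.2% of all genes. The mean was 36.4 ± 7.82% for members and 28.4 ± 2.67% for all genes (SD, n = 4), and replicate 1 was the library in which members were not above the background. Cytosolic members gave 33.3, 44.4, 50 and 66.7% (48.6 ± 13.9%), and mitochondrial members 20, 20, 26.7 and 20% (21.7 ± 3.33%). The cytosolic share was the higher one in 4 of 4 libraries, by 13.3, 24.4, 23.3 and 46.7 percentage points. The mean difference was 26.9 ± 14.1 points (SD, n = 4), with p = 0.125 in an exact two-sided sign-flip permutation test, the smallest p that 4 libraries allow, and 0.25 after Benjamini-Hochberg adjustment over 2 measures. The difference therefore did not pass a threshold of 0.05 and could not have done so. The same genes enter each library, so the test covers the spread between libraries only.

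**Figure D3:**
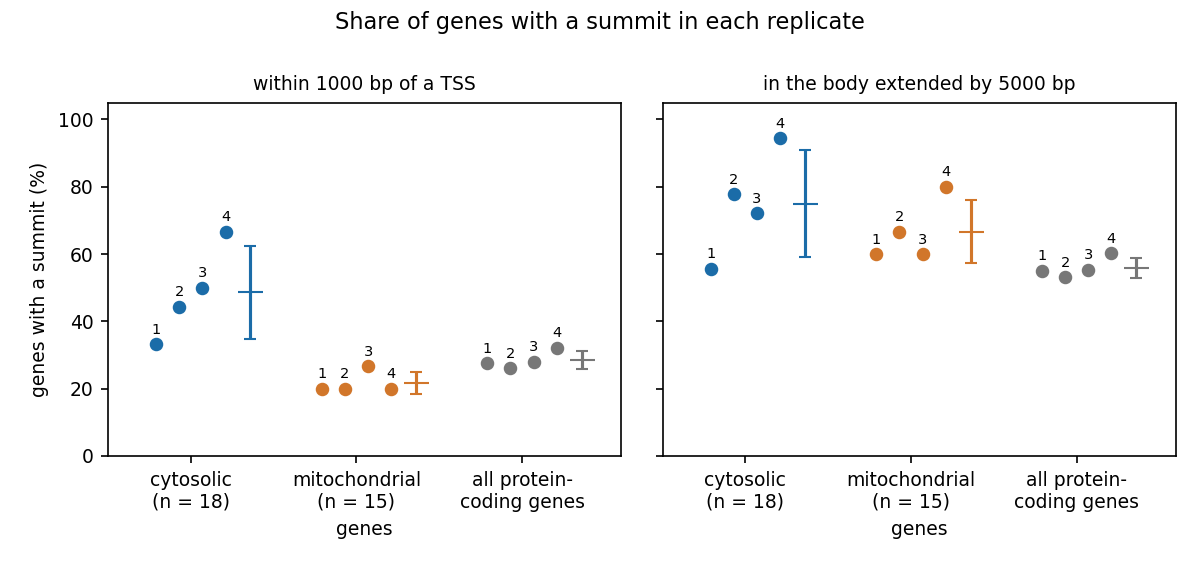
Percent of cytosolic members, mitochondrial members and all protein-coding genes with a summit among the 7909 highest-signal peaks of each replicate (numbered points, with mean ± SD beside them), within 1000 bp of a TSS (left) and in the gene body extended by 5000 bp (right). At promoters the cytosolic points run from 33.3 to 66.7% and the mitochondrial ones from 20 to 26.7%.

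Recurrence across the replicates is given for members only, without a background share, so it is not called high or low. In all 4 replicates AspRS, GluProRS, LeuRS-m, SerRS and TrpRS had a promoter summit among the highest-signal peaks, and 13 members had one in no replicate. Replicate 4 alone gave 4 members, namely IleRS (rank 2854), MetRS (3577), AlaRS-m (5715) and TyrRS (6367). Replicate 4 also differed from the others in its list, with 23.2% of its 30000 peaks at a q-value under 0.01, against 39.6 to 46.2% in replicates 1 to 3, and 496 peaks on chromosome 4, against 26 to 60. The part of this in the replicate 4 counts was not tested. Without replicate 4 the mean difference between cytosolic and mitochondrial members was 20.4 ± 6.12 points (SD, n = 3). Replicate 1 alone gave GlnRS, at rank 6353, replicate 3 alone gave AlaRS, and replicate 2 alone gave 0 members.

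Several members had promoter summits that did not reach the IDR list. ThrRS, the threonyl enzyme, was ranked 3407 in replicate 1 and 1711 in replicate 4, with summits 199 and 179 bp upstream, but 10360 in replicate 3, and it was not listed in replicate 2. Its best pooled summit ranked 26962 of 30000. ThrRS was thus strong in some libraries and absent from the list of another. CysRS-m ranked 10717, 7397 and 7769 in replicates 1 to 3, was not listed in replicate 4, and reached pooled rank 8229, the nearest of the members left out to the IDR list's last rank of 7909. ProRS-m ranked 18776, 7786, 7385 and 27475 in replicates 1 to 4, with a pooled rank of 8911. ArgRS-m ranked 6773, 14614, 12291 and 7813, with a pooled rank of 9432. These 3 mitochondrial genes each had a promoter summit among the highest peaks of 2 replicates. HisRS (pooled rank 10304), TrpRS-m (14441), AspRS-m (18954) and CysRS (20952) had promoter summits among the highest peaks of no replicate. TyrRS-m was listed in replicate 1 alone (rank 16792), and ValRS-m (17141) and GluRS-m (24595) in replicate 4 alone. No list held a promoter summit for AsnRS-m, IleRS-m, LysRS, MetRS-m, PheRS-m and ValRS.

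With the window widened to the gene body and 5000 bp on either side, 25 of 33 members held an IDR summit (75.8%, interval 59 to 87.2%), against 55.4% of all genes. The compartments stood close together here, at 14 of 18 cytosolic members (77.8%) and 11 of 15 mitochondrial members (73.3%), a difference of 4.44 points. Kept in the same way to peaks that the other 3 replicates overlapped, the count was 16 without replicate 2, 16 without replicate 3, 18 without replicate 4 and 20 without replicate 1, against 45.4, 43.9, 46.1 and 45.2% of all genes. These are 48.5, 48.5, 54.5 and 60.6% of members, above the background in each case. Without replicate 1 the difference was 25.6 points. The members' genes are somewhat longer than others, with a median of 2760 bp against 2166 bp for all genes, which widens the window slightly. In replicates 1 to 4 the difference was -4.44, 11.1, 12.2 and 14.4 points (8.33 ± 8.63, SD, n = 4, exact sign-flip permutation p = 0.25, 0.25 after adjustment), higher for cytosolic members in 3 of 4 libraries. Summits inside the gene body itself were found for 3 members, AspRS, ThrRS and SerRS-m (9.09%), against 18.1% of all genes. Those of ThrRS and SerRS-m lay in 3' untranslated exons. In the wide window, 56 of 73 mitochondrial ribosomal protein genes (76.7%) and 69 of 92 cytosolic ones (75%) had a summit.

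**Figure D4:**
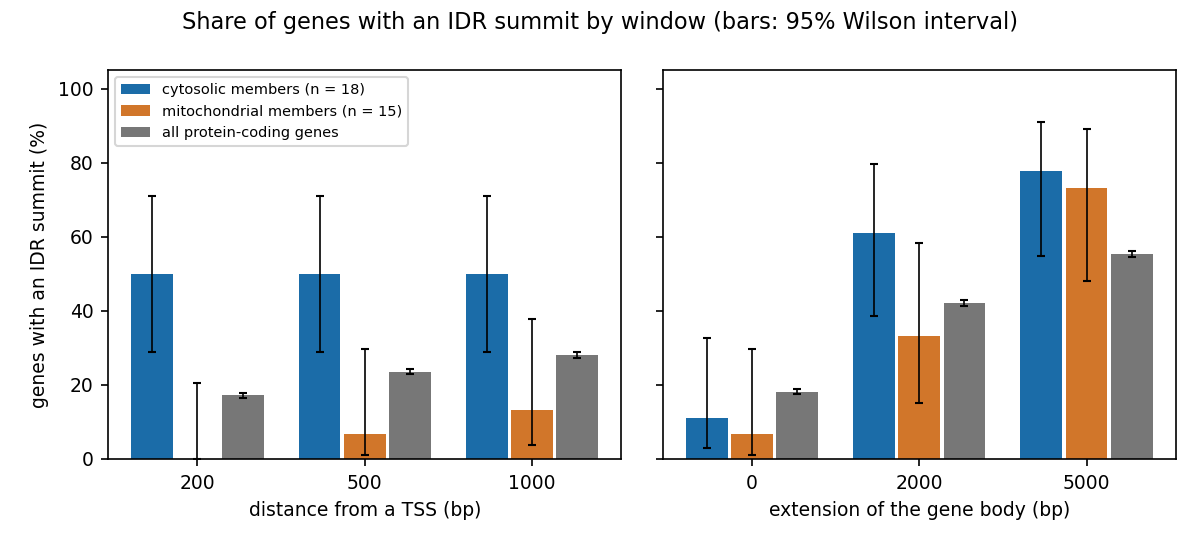
Percent of cytosolic members, mitochondrial members and all protein-coding genes with an IDR summit within 200, 500 or 1000 bp of a TSS (left) and in the gene body extended by 0, 2000 or 5000 bp (right), with 95% Wilson intervals. The cytosolic bars stay at 50% from 200 to 1000 bp while the mitochondrial bars are at 0, 6.67 and 13.3%, and at 5000 bp the bars stand at 77.8 and 73.3%.

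In the IDR list the gap between the compartments was wider at 200 bp from the start site than at 500 or 1000 bp. Within 200 bp of a TSS, 9 of 18 cytosolic members and 0 of 15 mitochondrial members had an IDR summit, against 17.3% of all genes. The upper Wilson limit for 0 of 15 is 20.4%, which takes in that background. Within 500 bp the counts were 9 of 18 and 1 of 15, against 23.6%, so all cytosolic promoter genes were already counted at 200 bp while both mitochondrial ones lay farther out. In the replicate lists the mean gap was 31.9 points at 200 bp, 33.6 at 500 bp and 26.9 at 1000 bp, so this order did not hold there. With the body extended by 2000 bp the IDR counts were 11 of 18 and 5 of 15, against 42%.

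Farther than 1000 bp from a TSS, the strong summits around many members lay nearest to other genes, with SerRS-m as an exception. A summit within 5000 bp of the body but none within 1000 bp of a TSS was found for 14 members. Any summit within 1000 bp of a TSS also lies in the wide window, so this class is what the wide window adds to the promoter count. The count is not read as a trait of the members. Of all genes, 55.4% had an IDR summit in the wide window and 28.2% had one at a promoter, against 75.8 and 33.3% of members. The strongest in reach of any member ranked 146, 4694 bp downstream of an AlaRS TSS, and its nearest TSS was that of CG13390. GlnRS had 5 such summits, led by rank 217 near Kdsr, a sphingolipid enzyme gene, and SerRS had one of rank 263 near CG17261. CysRS-m was near a summit of rank 770, PheRS-m near one of rank 1226 in an intron of the cathepsin gene CtsL1, and ThrRS near one of rank 1043 at the protease gene Phae1. GluRS-m and TyrRS lie side by side and share 1 summit, rank 6677, near Serinc. None of these was nearest to a synthetase TSS. SerRS-m had a summit of rank 1447 (signal 920) 1381 bp upstream, with its own TSS the nearest of all genes, and summits of ranks 3101 and 4186 in its 3' untranslated exon, where Nagk has the nearest TSS. AspRS-m, HisRS, IleRS, IleRS-m, LysRS, MetRS-m, ValRS and ValRS-m had no IDR summit in this window.

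The sites were searched for short motifs on both strands within 100 bp of the summit. TAATTA was found at 3 of the 14 summits (21.4%), those of GlyRS, LeuRS and the rank 5022 summit of AspRS, against 19.5% of all 4342 promoter summits. CTTATC was found at 2 (14.3%), the strongest AspRS site and that of SerRS-m, against 31.5%. TATCGATA was found at 3 (21.4%, interval 7.57 to 47.6%), those of TrpRS and AlaRS and the rank 7063 summit of AsnRS, against 4.33%. No CTTATC match at these 14 overlapped a TATCGATA match. With 50 bp in place of 100 bp, TAATTA was found at 0 of the 14 and TATCGATA at 1. The counts are small, and a match is not a site. CACGTG, the E-box, TGATGCAA, a composite site that ATF4 binds in mammals, and GGTCACAC, part of a core promoter motif, were found at 0 of the 14, against 2.81, 0.322 and 1.93% of all promoter summits. The 14 windows had a median GC content of 30.6%, against 38.8% for all promoter summits, and the part of base composition in these counts was not tested.

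The window from 250 bp before to 50 bp after each annotated TSS was read for every member, bound or not. TATCGATA was present in 5 of 18 cytosolic windows (AlaRS, ArgRS, AspRS, IleRS and TrpRS), in 1 of 15 mitochondrial windows (PheRS-m) and in 10.2% of all genes. Of those 6 members, 4 had an IDR promoter summit. The share for all genes with the motif is not given, so no link to binding is read from this. Within 100 bp of the summit itself TATCGATA was found for AlaRS and TrpRS, and not for ArgRS or AspRS. TAATTA was present in 3 cytosolic windows (GlnRS, GlyRS and LeuRS), 2 mitochondrial ones (AspRS-m and ProRS-m) and 24.3% of all genes. CTTATC was present in TrpRS and TyrRS, in 0 mitochondrial windows and in 23% of all genes. GGTCACAC was present in GlnRS, AsnRS-m, AspRS-m and ProRS-m, against 8.71% of all genes. CACGTG was present in GlnRS, ThrRS and LeuRS-m, against 5.34%. TGATGCAA was present in ThrRS alone, against 1.09%.

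Genes that work with the synthetases were counted from a list of 16, all found in the annotation, and 3 had an IDR promoter summit (18.8%, against 28.2% of all genes). These were eEF1alpha1, the elongation factor that carries charged tRNA to the ribosome (best rank 1806), GatA, a subunit of the amidotransferase that makes mitochondrial glutaminyl-tRNA (rank 2025), and crc, the fly ATF4 (rank 3424). All 3 were among the highest-signal promoter peaks of all 4 replicates, at ranks 1476, 2739, 2104 and 1510 for eEF1alpha1, 1649, 2010, 2465 and 6047 for GatA, and 5122, 2972, 3476 and 1767 for crc. The subunit genes of the cytosolic phenylalanyl enzyme had no IDR promoter summit, and replicate 4 alone listed one, at rank 6199 for beta-PheRS and 19127 for alpha-PheRS. No IDR promoter summit was found for the scaffold genes AIMP1, AIMP2 and AIMP3, for Slimp, a relative of SerRS-m, for the amidotransferase genes GatB and GatC, or for the elongation factor genes eEF1alpha2, mEFTu1 and mEFTu2. The same held for Dtd, which removes D-amino acids from tRNA, and Gcn2, the kinase that senses uncharged tRNA. Some of these had a promoter summit in replicate lists, namely AIMP3 at ranks 7086 and 8237 in replicates 1 and 4, GatB at 8148 and 16755 in replicates 2 and 4, and mEFTu1 at 5696 in replicate 4. Slimp was listed in all 4 replicates, at ranks 12584, 9214, 13498 and 26102. In replicate 4 alone, eEF1alpha2 (18608), Dtd (18735) and Gcn2 (12889) were listed. Within 5000 bp of the body, 10 of the 16 had an IDR summit (62.5%), against 55.4% of all genes.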

How the data were processed

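Peak lists from anti-GFP ChIP-seq of 4 biological replicates were deposited on dm6, as lists per replicate and pooled (30000 peaks each) and as an IDR list (7909). The IDR list derives from the others, per the deposited file lists. The sources used here do not give the aligner, the peak caller or the IDR threshold, and read depth is unknown. The authors' signal value is a score with no stated unit, and it ranks peaks in a list here. The deposited q-value is on a −log10 scale and served to count peaks with q under 0.01.

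Summits were assigned to 13945 protein-coding genes of Ensembl release 115 (BDGP 6.54), within 1000 bp of any TSS or in the body extended by 5000 bp. Shares have 95% Wilson intervals, which treat genes as independent and cover counting error only. Replicate lists have a fixed length, so each was cut to its 7909 highest peaks. The labels call the replicates biological but do not say that they came from separate collections, so part of their spread may be technical. Compartments were compared by an exact sign-flip permutation test over replicates. The code recovered all summits and motifs planted in simulated data. Sequence came from the RefSeq Release 6 genome.

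The alternatives were other distances, the nearest TSS only, IDR ranks up to 3954, each replicate left out, whole peaks and other overlaps. Further ones were the PheRS subunit genes added and, chosen after seeing the data, pooled peaks with q under 0.01. For IDR counts, leaving a replicate out meant keeping IDR peaks that the highest-signal peaks of each of the other 3 overlapped. All members were named. Full values were given for members with a promoter summit at such a rank and for mitochondrial members with one. Members and lists were chosen with earlier results of these data known. The software was matplotlib 3.10.9, scipy 1.17.1, pandas 2.3.3, numpy 2.4.6 and Python 3.11.15.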

Additional observations from a re-analysis of the deposited data

Results flagged for a closer look

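A replicate stood well away from the rest in 1 of 19 measures checked. The share of mitochondrial members with a promoter summit among the highest-signal peaks was 26.7% in replicate 3 and 20% in the other 3 replicates. The gap is 1 gene of 15. The rule used flags about 1 of 20 groups by chance when values are continuous. These shares move in steps of 1 gene and the other 3 are equal, so that rate does not hold here.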

How the results depend on the processing

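In all alternatives run the cytosolic share stayed above the mitochondrial one. The members' share against that of all genes did turn round, in 5 of 11 alternatives at promoters and in 2 of 11 in the wide window. Of 33 members, 11 had an IDR promoter summit (33.3%, against 28.2% of all genes). This fell to 6 (18.2%, against 22%) when a summit counted only for the nearest TSS, and to 5 (15.2%, against 15.8%) at IDR ranks up to 3954. It was 5 to 9 with a replicate left out, against 18.9 to 20.2%, with 5 (below the background) without replicate 2, 3 or 4. For IDR counts this kept the IDR peaks that each of the other 3 replicates overlapped, a demand that the main count does not make. The 25 members with a summit in the body extended by 5000 bp (75.8%, against 55.4%) became 16 (48.5%, against 42%) with 2000 bp, 3 (9.09%, against 18.1%) with 0 bp, 6 (18.2%, against 27.1%) with the nearest TSS only, 16 (48.5%, against 39.9%) at ranks up to 3954 and 16 to 20 with a replicate left out, against 43.9 to 46.1%. The mean replicate share of 36.4% was 59.8% with all peaks, against 50.2% of all genes, and 25.8% within 200 bp, against 17.4%. It was 33.3 to 39.4% with a replicate left out. With a replicate left out, the difference between compartments ranged from 15.6 to 37.8 points at promoters and 2.22 to 25.6 in the wide window. For the replicate mean it was then 20.4 to 31.5, and replicate support was 69 to 88.1%. Over all alternatives the difference ranged from 15.6 to 50 points at promoters, 1.67 to 27.8 in the wide window and 18.1 to 33.6 for the replicate mean. Replicate support ranged from 66.1 to 94.6%. With a 50 bp window the share of summits with TAATTA was 0% and with TATCGATA 7.14%, against 21.4% each. Pooled peaks with q under 0.01, chosen after seeing the data, gave 15 members at promoters (45.5%, against 36.2% of all genes), 10 cytosolic and 5 mitochondrial, a difference of 22.2 points. The cause of these changes was not tested. Read depth is unknown, the IDR filter could not be rerun, and a fixed list length hides differences in enrichment. No paired analysis was possible because there is only 1 group, so the replicate numbers pair no samples across groups. The compartments were compared within each library.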
